A study of Mus musculus with 14 samples.

Results

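The let-7 family was followed on 14 microarrays of mouse small RNA: mmu-let-7a-5p, mmu-let-7b-5p, mmu-let-7c-5p, mmu-let-7d-5p, mmu-let-7e-5p, mmu-let-7f-5p, mmu-let-7g-5p, mmu-let-7i-5p and mmu-miR-98-5p. These 9 mature miRNAs were taken by name from the 1247 on the array, and all 9 were detected on all 14 arrays. The study asked how miRNAs of irradiated mice differ after pretreatment with radioprotectants. The mice were male C57BL/6 animals of 6 to 8 weeks, and each array carried RNA pooled from 3 mice, 12 h after 0 or 8 Gy of gamma irradiation. Bone marrow was taken from 5 arms at each dose: PBS by intraperitoneal injection (i.p.), PBS by gavage (i.g.), amifostine, CBLB502 and nilestriol. Amifostine, a thiol prodrug, was injected i.p. at 10 mg/kg and CBLB502, an agonist of Toll-like receptor 5 derived from flagellin, at 0.2 mg/kg, each 0.5 h ahead of the radiation. Nilestriol, an estriol derivative, was gavaged at 150 mg/kg and 48 h ahead. Hypothalamus came from mice given amifostine or injected PBS, again at each dose. Each group was therefore 1 pool on 1 array, with 10 arrays of bone marrow and 4 of hypothalamus. Tests used the spread left after the fitted effects, and that spread may be technical.

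A let-7 miRNA guides an Argonaute protein to messages that pair with its seed, bases 2 to 8, and lowers their output. The family is known for holding back proliferation and growth genes such as Lin28, Hmga2, Myc and Ras family genes, for accumulating as cells differentiate, and for its abundance in brain. LIN28 in turn blocks maturation of most let-7 precursors.

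The 9 mature sequences, printed with the seed in capitals because the members differ only outside it, were as follows (RefSeq, GRCm38.p6).
mmu-let-7a-5p: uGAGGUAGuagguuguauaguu
mmu-let-7b-5p: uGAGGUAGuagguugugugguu
mmu-let-7c-5p: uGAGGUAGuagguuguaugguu
mmu-let-7d-5p: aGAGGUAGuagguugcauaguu
mmu-let-7e-5p: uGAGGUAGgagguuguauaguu
mmu-let-7f-5p: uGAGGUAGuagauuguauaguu
mmu-let-7g-5p: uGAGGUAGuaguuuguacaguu
mmu-let-7i-5p: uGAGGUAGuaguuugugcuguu
mmu-miR-98-5p: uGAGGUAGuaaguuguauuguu
All 9 are 22 bases long and carry the seed GAGGUAG. Counted from the 5′ end against mmu-let-7a-5p, mmu-let-7c-5p carries A19G, mmu-let-7e-5p carries U9G and mmu-let-7f-5p carries G12A, each as its only substitution. mmu-let-7i-5p, with G12U, A17G, U18C and A19U, has the most substitutions of the 9.

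Each member was read by 2 probes of 20 spots each, complementary to its 3′ end. The 19-base probes of mmu-let-7a-5p and mmu-let-7e-5p, whose tissue differences lay far apart, are shown with the 1 base that separates them in capitals.
mmu-let-7a-5p probe: aactatacaacctActacc
mmu-let-7e-5p probe: aactatacaacctCctacc
Within the bases that a probe covers, 6 members lie 1 mismatch from another member, and mmu-let-7g-5p, mmu-let-7i-5p and mmu-miR-98-5p lie 2 mismatches away. How much of a member's signal comes from a near neighbour was not tested, and levels were compared only between arrays for the same member. The 2 probes of a member gave irradiation differences in bone marrow within 0.06 of each other (log2) for all 9, and tissue differences within 0.42.

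The members are encoded at several loci. Mirlet7a-1, Mirlet7f-1 and Mirlet7d lie together on chromosome 13, and Mirlet7c-2 and Mirlet7b lie together on chromosome 15 within the span of Lncppara. Mirlet7f-2 and Mir98 lie within the span of Huwe1 on the X chromosome. Mirlet7c-1 (GRCm38.p6 chr16:77599657-77599750) lies next to Mir99a, Mirlet7a-2 next to Mir100 inside Mir100hg, and Mirlet7e (chr17:17830352-17830444) next to Mir125a within the span of Spaca6. Mirlet7g lies within the span of Wdr82, and Mirlet7i (chr10:122985640-122985724) had no other miRNA within 10 kb. let-7a, let-7c and let-7f come from more than 1 hairpin, so their probes read the sum.

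Between 332 and 403 miRNAs were detected on a bone marrow array and between 478 and 582 on a hypothalamus array, and no spot was saturated. The marker lists separated the tissues in their sums, though not in every marker. The neural miRNAs mmu-miR-124-3p, mmu-miR-9-5p, mmu-miR-9-3p and mmu-miR-138-5p were detected on 0 of 10 bone marrow arrays and 4 of 4 hypothalamus arrays. The other 3 neural markers were detected in bone marrow too, mmu-miR-128-3p and mmu-miR-7a-5p on 10 arrays and mmu-miR-219-5p on 8, at lower signals than in hypothalamus. Of the blood-cell markers, mmu-miR-150-5p overlapped between the tissues, at signals of 141 to 390 in bone marrow and 205 to 239 in hypothalamus. Summed and scaled to each array, the 7 neural markers gave 0.372 to 0.772 in bone marrow and 83 to 111 in hypothalamus, and the 6 blood-cell markers gave 108 to 374 in bone marrow and 3.61 to 4.37 in hypothalamus. Slides followed the arms: the PBS and CBLB502 arrays of both tissues shared slide 1, the bone marrow arrays of amifostine and nilestriol shared slide 2, and the hypothalamus arrays of amifostine shared slide 3.

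All 9 let-7 members were detected in both bone marrow and hypothalamus, and the difference in level between the tissues varied widely from member to member. mmu-let-7e-5p was 124-fold lower in bone marrow, mmu-let-7c-5p 7.45-fold lower and mmu-let-7b-5p 4.97-fold lower, while mmu-let-7i-5p stood at 1.03-fold. The sizes depended on the processing. Over 19 settings the log2 difference ran from -7.59 to -5.2 for mmu-let-7e-5p, -3.54 to -1.48 for mmu-let-7c-5p and -2.96 to -0.89 for mmu-let-7b-5p. Of the 9 members, 8 passed the test as lower in bone marrow (limma, adjusted p at most 0.0217), where 56% of all 530 miRNAs tested passed in either direction. The median difference of the 9 members was -1.45 on the log2 scale, beside -0.38 over all miRNAs tested, a value that ran from -0.86 to 0.62 over 19 settings; the members' median minus it ran from -1.5 to -0.47. In bulk tissue, fewer cells that hold a miRNA and less of it per cell cannot be told apart.

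Before scaling, mmu-let-7e-5p gave signals of 24.6, 31.2, 21.8 and 19.9 on the bone marrow arrays of PBS at 0 Gy, PBS at 8 Gy, amifostine at 0 Gy and amifostine at 8 Gy. On the matching hypothalamus arrays it gave 4750, 5060, 4320 and 4500. The SD between spots of a probe was a median 12.6% of the mean over all bone marrow arrays and 3.86% in hypothalamus. The tissues did not overlap, and the 4 pair differences were -6.62, -6.98, -7.54 and -6.66 on the log2 scale. The fitted difference was -6.95 ± 0.20 (SE, 4 pairs of arrays, limma adjusted p = 1.67e-05). mmu-let-7a-5p, 1 mismatch from each probe of mmu-let-7e-5p, gave signals of 1980 to 3960 in bone marrow. Its part in the bone marrow signal of mmu-let-7e-5p was not tested.

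mmu-let-7c-5p read 955, 1180, 814 and 1030 on the same 4 bone marrow arrays and 11200, 12600, 11100 and 11200 in hypothalamus. Its difference was -2.90 ± 0.27 (SE, limma adjusted p = 0.000681). mmu-let-7b-5p, encoded beside Mirlet7c-2, read 626 to 888 in bone marrow and 5590 to 6360 in hypothalamus, a difference of -2.31 ± 0.26 (limma adjusted p = 0.00161). The 2 tissues did not overlap for either miRNA.

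The other called members differed less. mmu-let-7a-5p was 2.81-fold and mmu-miR-98-5p 2.73-fold lower in bone marrow, with differences of -1.49 ± 0.24 and -1.45 ± 0.21. Neither passed with the percentile over all miRNAs, at -0.074 and -0.031, or with the trend over GC content removed, at -0.24 and -0.23. mmu-let-7g-5p, mmu-let-7d-5p and mmu-let-7f-5p were 2.12-fold, 2.04-fold and 2.05-fold lower. The lower level of let-7d, let-7f and let-7g in bone marrow held only for some scalings: with arrays scaled by the percentile over all miRNAs these members were higher in bone marrow by 0.39, 0.38 and 0.33, and with the trend over probe GC content removed by 0.24, 0.17 and 0.17. Fitted with slide as a term, which leaves the PBS pairs of slide 1 to set the tissue difference, 4 members passed: mmu-let-7b-5p, mmu-let-7c-5p, mmu-let-7e-5p and mmu-miR-98-5p. Without the pair of PBS arrays at 8 Gy, 5 members passed.

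mmu-let-7i-5p was the exception. Its scaled log2 level was 2.76, 2.96, 2.31 and 3.09 on the bone marrow arrays of PBS at 0 and 8 Gy and of amifostine at 0 and 8 Gy, and 2.59, 3.15, 3.07 and 2.49 in hypothalamus. The ranges overlapped, with 2 pairs higher and 2 lower, and the fitted difference of -0.047 had a 95% interval of -0.71 to 0.62 (limma adjusted p = 0.891). Its direction depended on the scaling, and it passed in 5 of 19 settings. It passed as lower in bone marrow with no scaling (-0.69) and as higher after quantile normalization (0.64), in the authors' deposited table (0.59), with the percentile over all miRNAs (1.37) and with the trend over GC content removed (1.23).

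**Figure D1:**
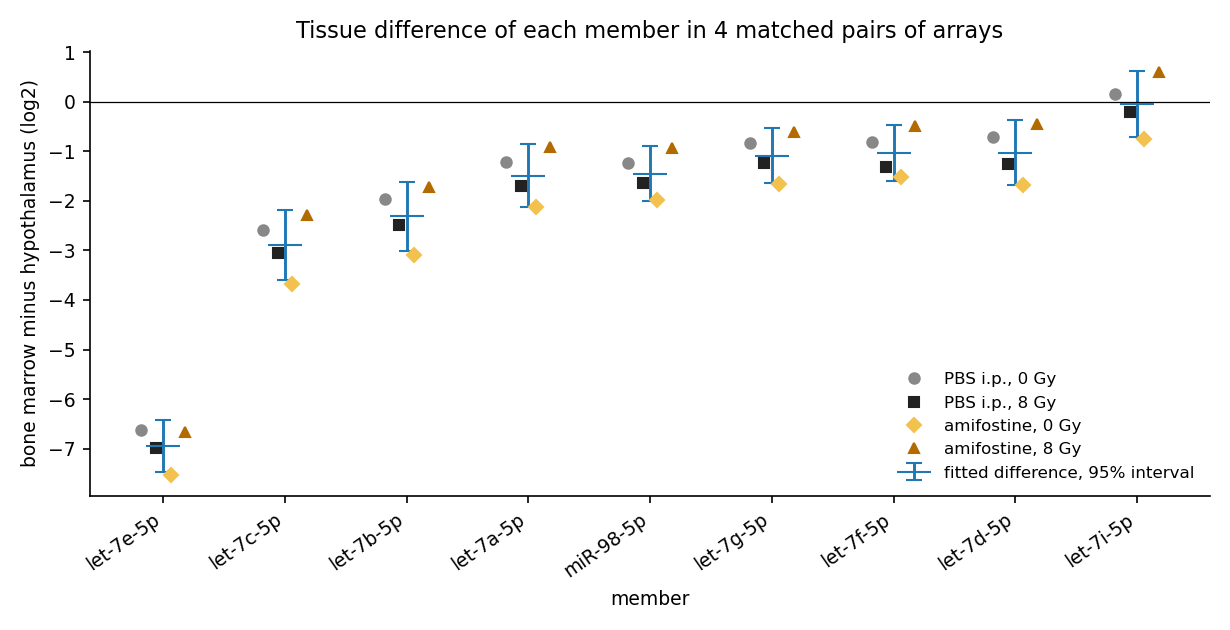
Bone marrow minus hypothalamus (log2, vertical axis) for each member (horizontal axis, ordered by difference). Symbols are the 4 matched pairs of arrays, and bars are the limma estimate with its 95% interval. mmu-let-7e-5p sits near -6.95, mmu-let-7c-5p and mmu-let-7b-5p at -2.90 and -2.31, and mmu-let-7i-5p spans 0.

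The ends of the members' order were the same under each setting. In all 19 settings tried, mmu-let-7e-5p had the lowest difference, followed by mmu-let-7c-5p and mmu-let-7b-5p, and mmu-let-7i-5p had the highest. These first 3 passed in all 19. Settings that only rescaled arrays, or changed the filter or the prior variance, shift all members alike or not at all. The order could not change under those settings, so its constancy there adds nothing. Set against the mean of the other 8 members on the same arrays, mmu-let-7e-5p was lower by 5.53 on average, with pairs from -5.82 to -5.37, and mmu-let-7i-5p was higher by 2.23 ± 0.094 (SD, n = 4 pairs, from 2.16 to 2.36). For mmu-let-7i-5p that mean includes mmu-let-7e-5p, whose difference of -6.95 lowers the mean and enlarges the value. An exact two-sided sign-flip permutation test over the 4 pairs gave p = 0.125 for each of the 9 members. That is the smallest value that 4 pairs allow, so the test could not pass a member or tell the members apart. No conclusion is drawn from it.

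miRNAs known to be made from the same transcripts as some members were also lower in bone marrow. mmu-miR-125a-5p, the neighbour of let-7e, differed by -6.77 ± 0.21 and mmu-miR-99b-5p, of the same cluster, by -5.14 ± 0.18. mmu-miR-99a-5p, the neighbour of let-7c, differed by -4.93 ± 0.22, mmu-miR-100-5p, the neighbour of let-7a-2, by -6.01 ± 0.23, and mmu-miR-125b-5p, made from the let-7a-2 and let-7c-1 clusters, by -6.97 ± 0.23. All 5 passed (limma adjusted p at most 5.02e-05). mmu-miR-99b-5p was detected on 0 of the 4 matched bone marrow arrays and mmu-miR-125a-5p on 2 of 4, so the first value rests on the floor set for dim signals and the second rests on it in part. Over the settings they ran from -9.93 to -1.94 and from -8.99 to -3.70.

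No let-7 member passed as changed by irradiation in bone marrow, though all were higher at 8 Gy as scaled here. All 9 members were higher at 8 Gy over the 5 arms, by 0.20 to 0.52 (log2, median 0.36), and 0 of 9 passed the test (limma, adjusted p from 0.0847 to 0.294). Of all 371 miRNAs tested, 12.7% passed and the median difference was 0.086. By limma, 134 of the 371 had an unadjusted p under 0.05, 4 members among them. After quantile normalization 4 members were lower at 8 Gy and the median was 0.024. Without the nilestriol arm the median was 0.19.

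mmu-let-7i-5p came nearest to a call. Its log2 level went from 2.94 to 3.01 in the PBS i.p. arm, from 2.59 to 2.85 in the PBS i.g. arm, from 2.48 to 2.77 with CBLB502, from 2.48 to 3.12 with amifostine and from 2.03 to 2.68 with nilestriol. It was higher at 8 Gy in 5 of 5 arms, by 0.38 ± 0.12 (SE, limma adjusted p = 0.0847). With the normexp background correction this member passed, at 0.36 ± 0.089 (limma adjusted p = 0.0414). There 39 of all 371 miRNAs tested passed.

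mmu-let-7e-5p, whose bone marrow signal was dim, varied most between arms. Its log2 level went from -3.26 to -3.13 after injected PBS, from -2.94 to -2.80 after gavaged PBS, from -3.28 to -3.33 with CBLB502, from -3.82 to -3.54 with amifostine and from -4.56 to -2.47 with nilestriol. Signals before scaling ran from 14 to 51. The nilestriol pair holds both the lowest and the highest of the 10 values, and the fitted difference of 0.52 ± 0.33 was within its error (limma adjusted p = 0.294).

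mmu-let-7a-5p went from 3.57 to 3.62 after injected PBS, from 3.30 to 3.51 after gavaged PBS, from 3.14 to 3.28 with CBLB502, from 3.10 to 3.67 with amifostine and from 2.59 to 3.43 with nilestriol. The 8 Gy values lay close together and the 0 Gy values spread downward in the drug arms. mmu-let-7c-5p followed the same course, at 2.02 and 2.12 after injected PBS against 1.04 and 2.20 with nilestriol.

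By arm, the 8 Gy array differed from the 0 Gy array by a member range of -0.022 to 0.13 after injected PBS, 0.061 to 0.26 after gavaged PBS, -0.047 to 0.29 after CBLB502, 0.28 to 0.75 after amifostine and 0.48 to 2.09 after nilestriol. Over all 371 miRNAs the median of each arm lay between -0.024 and 0.11. In the 2 PBS arms alone, all 9 members were higher at 8 Gy by a median of 0.14 and 0 passed by limma, with an adjusted p of at least 0.296 (0% of 362 miRNAs passed by limma, and 107 had an unadjusted p under 0.05, with no member among them).

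For each of the 9 members, the amifostine and nilestriol arms both differed more between the doses than each of the other 3 arms. The same held for 30.5% of the 371 miRNAs. An earlier report on these data gave larger let-7 differences in the amifostine and nilestriol arms. The split of arms was made with that known, so this count and the fit below are not independent of it. Fitted as a difference in response between these 2 arms and the other 3, the members gave 0.34 to 1.11 (median 0.57, beside 0.08 over all miRNAs), and 0 of 9 passed (limma, adjusted p from 0.195 to 0.277; 0% of 371 passed, 90 had an unadjusted p under 0.05, 7 members among them). These 2 arms are those of slide 2, and an effect of the drugs cannot be told apart from one of the slide. The response was larger in these arms for 7 of the 9 members, with a median of 0.17, both without scaling and after removal of the trend over GC content. Without the amifostine arm mmu-let-7e-5p was at 2.02, a value that then rests on the nilestriol arm alone. Within slide 1 the irradiation difference of the members had a median of 0.098, and within slide 2 a median of 0.74.

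**Figure D2:**
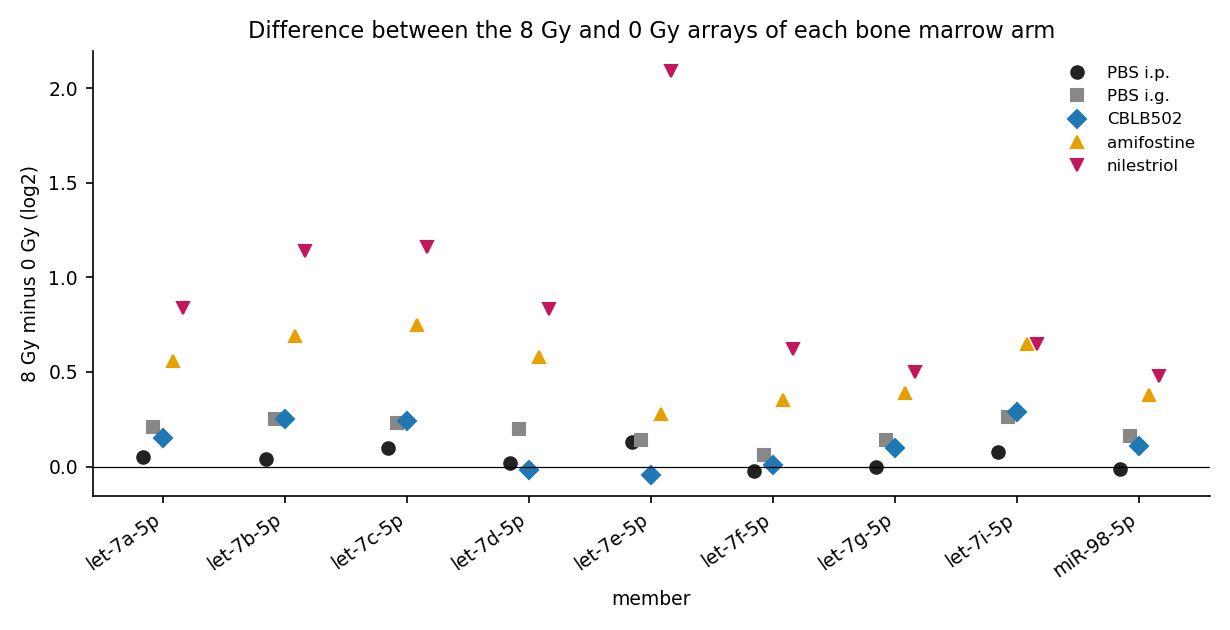
Difference between the 8 Gy and the 0 Gy array (log2, vertical axis) of each member (horizontal axis) in each of the 5 bone marrow arms. For every member the nilestriol and amifostine points lie above those of the other 3 arms, and mmu-let-7e-5p reaches 2.09 with nilestriol.

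Compared with vehicle, the response to irradiation in the nilestriol arm was larger for all 9 members, by a median of 0.71, and 0 passed (limma, adjusted p from 0.133 to 0.347; 0% of 371 passed, 85 had an unadjusted p under 0.05, 3 members among them). The value of mmu-let-7e-5p was 1.96 ± 0.34. Those of mmu-let-7c-5p and mmu-let-7b-5p were both 1 when rounded, with 95% intervals of 0.53 to 1.46 and 0.37 to 1.62. All miRNAs tested had a median of 0.23. With the GC trend removed 6 of the 9 members were larger, with a median of 0.16, and mmu-let-7e-5p was at 1.49. With amifostine the 9 members gave 0.14 to 0.59 (limma adjusted p of at least 0.242; 0% of 371 passed, 61 unadjusted, 1 member), and with no scaling 8 of the 9 were below 0. With CBLB502 they gave -0.18 to 0.12 (limma adjusted p of at least 0.901; 0% of 371 passed, 38 unadjusted, 0 members). The 3 comparisons share the vehicle arrays. Each drug dose was 1 array, so the errors and intervals of these member responses come from the PBS arrays alone.

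The 0 Gy nilestriol array held the lowest bone marrow level of all 9 members as scaled here, and of 7 to 9 members over the other ways of making the values. The same array was lowest for 83 of all 371 miRNAs tested. Relative to the PBS i.g. array of the same dose, the members were lower by a median of 0.71 without irradiation, with a range of -1.62 to -0.47. At 8 Gy the same difference had a median of -0.078, and 3 of 9 members were higher. The nilestriol and PBS i.g. arrays lay on different slides. Between the vehicle arrays, PBS i.g. minus PBS i.p. had a member median of -0.24 at 0 Gy, smaller in size than the nilestriol difference, and of -0.093 at 8 Gy, about as large.

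Marker levels moved on these arrays too. The summed level of the 5 muscle and vessel markers was 0.355 on the 0 Gy nilestriol array, the lowest of 10, and 1.48 on the 8 Gy nilestriol array, the highest, against 0.58 to 1.3 on the other 8. The 6 blood-cell markers summed to 108 to 189 at 0 Gy and 245 to 374 at 8 Gy, with the lowest sum again on the 0 Gy nilestriol array. Such a sum follows its brightest markers, and the list was split. Between the doses mmu-miR-451a, mmu-miR-144-3p and mmu-miR-223-3p differed by 1.4, 1.6 and 0.54 (log2). The differences of mmu-miR-150-5p, mmu-miR-142-5p and mmu-miR-142-3p were -0.6, -0.12 and -0.032. In the muscle and vessel list mmu-miR-145a-5p was detected on 0 and mmu-miR-143-3p on 2 of the 10 arrays. The part of these markers in the let-7 values was not tested.

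**Figure D3:**
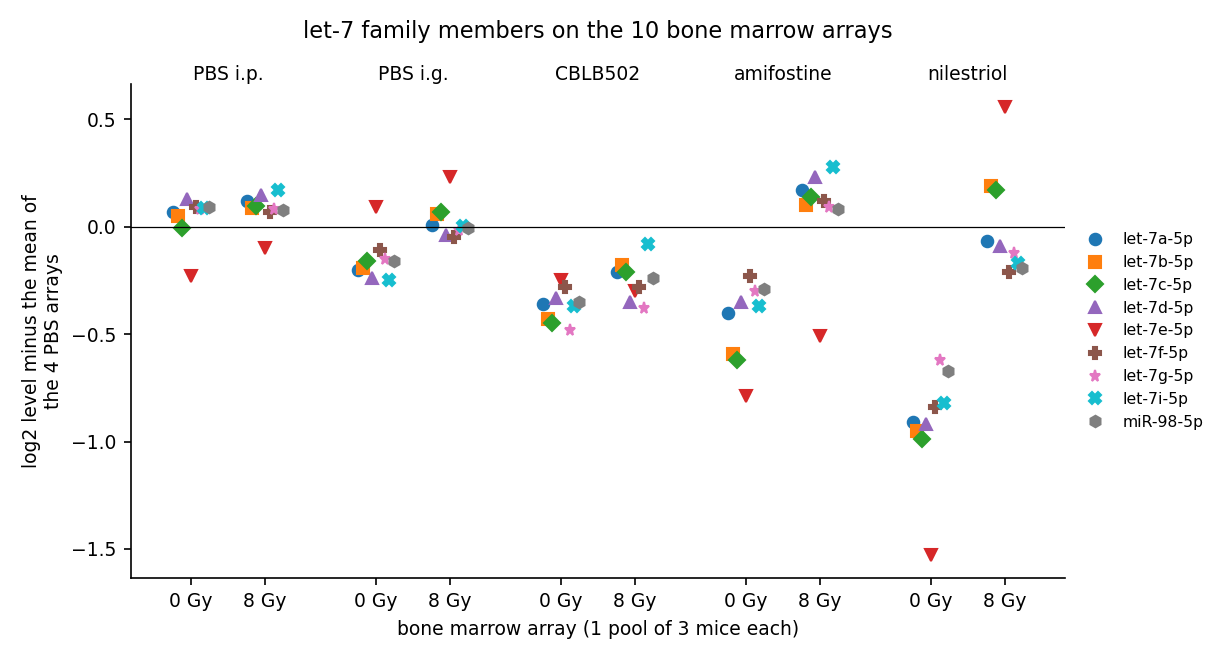
Scaled log2 level of each member on the 10 bone marrow arrays (horizontal axis, by arm and dose), as the difference from its own mean over the 4 PBS arrays (vertical axis). All 9 members are lowest on the 0 Gy nilestriol array, and mmu-let-7e-5p reaches -1.53 there.

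Averaged over both doses, the members tended to lie below vehicle in each drug arm, and in none did a member pass. The nilestriol and amifostine arrays were on slide 2 and the vehicle arrays on slide 1. For these 2 drugs an effect of the drug cannot be told apart from one of the slide. With nilestriol all 9 were lower, by 0.37 to 0.52 (median -0.48, beside 0.023 over all miRNAs; limma adjusted p from 0.179 to 0.442; 0% of 371 passed, 95 unadjusted, 5 members among them). mmu-let-7f-5p, at -0.52 ± 0.17, had the largest difference from vehicle of the 9. Without the 8 Gy nilestriol array mmu-let-7c-5p was at -0.82 and mmu-let-7e-5p at -1.47. Without the 0 Gy array the median was -0.17, and mmu-let-7b-5p, mmu-let-7c-5p and mmu-let-7e-5p turned higher than vehicle.

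With CBLB502 all 9 members were lower, by 0.23 to 0.43 (median -0.29, beside 0.15 over all miRNAs; 12.1% of 371 passed). mmu-let-7g-5p came nearest to a call, at -0.43 ± 0.15 (limma adjusted p = 0.0815). It read 2.29 at 0 Gy and 2.39 at 8 Gy with CBLB502, against 2.85 and 2.85 with PBS i.p. and 2.62 and 2.75 with PBS i.g., so both CBLB502 arrays lay below all 4 vehicle arrays. CBLB502 and vehicle share slide 1, and within that slide mmu-let-7g-5p passed, at -0.42 ± 0.10 (limma adjusted p = 0.0432).

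With amifostine the members gave -0.65 to -0.047 (median -0.11, beside 0.045 over all miRNAs; limma adjusted p of at least 0.385; 0% of 371 passed, 76 unadjusted, 0 members). With the GC trend removed 4 of the 9 were higher than vehicle. The 2 doses differed: against the PBS i.p. array, all 9 members were lower at 0 Gy by a median of 0.47, and at 8 Gy the median was 0.04 with 8 of 9 higher. mmu-let-7e-5p was lower at both doses, by 0.56 and 0.41.

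Nilestriol and amifostine, which share slide 2, differed in the members by -0.47 to 0.17 (median -0.32, beside -0.077 over all miRNAs; limma adjusted p of at least 0.491; 0% of 371 passed, 34 unadjusted, 1 member). The drugs were given at different doses, times and routes. The median was -0.12 with the GC trend taken out, -0.13 with no scaling, where 3 of 9 members were higher with nilestriol, and -0.18 after quantile normalization. For mmu-let-7f-5p the difference was -0.47, with a 95% interval of -0.93 to -0.017.

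Probe composition moved with the drug values and with some of the irradiation responses. The members' probes held 31.7% to 45.9% GC (median 40.5%), against a median of 54.8% over the 371 miRNAs tested. Across these miRNAs, which share arrays and are not independent, Spearman's rho between GC content and the difference from vehicle was 0.471 with nilestriol, 0.385 with amifostine and 0.425 with CBLB502. For the irradiation response against vehicle rho was -0.457 with nilestriol, -0.41 with amifostine and -0.0967 with CBLB502. For the amifostine and nilestriol arms against the others it was -0.484. For irradiation itself rho was -0.0529 in bone marrow and 0.399 over the 544 miRNAs tested in hypothalamus. With the GC trend removed from each array, the members' median against vehicle was -0.22 with nilestriol, -0.0089 with amifostine and -0.15 with CBLB502.

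The members moved together from array to array. In bone marrow the SD of a member's log2 level over the 10 arrays was 0.24 to 0.58, and with the family mean of each array removed it was 0.049 to 0.38. mmu-let-7a-5p followed the mean of the other 8 most closely (Pearson r = 0.986 over 10 arrays, as a description) and mmu-let-7e-5p least (r = 0.702). Outside the family, and among 287 miRNAs detected on all 10 arrays, the profiles most like the family mean were those of mmu-miR-195a-5p (r = 0.962), mmu-miR-25-3p (0.945), mmu-miR-151-5p (0.939), mmu-miR-93-5p (0.925) and mmu-miR-423-5p (0.923). All values share the scaling of the arrays.

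In hypothalamus the members moved together and 0 passed a test. mmu-let-7a-5p read 5.28 and 5.62 with PBS at 0 and 8 Gy and 5.47 and 5.05 with amifostine (scaled log2 level). All 9 members were highest on the 8 Gy PBS array and lowest on the 8 Gy amifostine array. Their differences at 8 Gy therefore ran in opposite directions, with a median of 0.30 with PBS and -0.43 with amifostine, and the medians over all 544 miRNAs were -0.081 and -0.20.

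Before scaling the same arrays were nearly level: mmu-let-7a-5p gave 12800 and 14000 with PBS and 12300 and 12300 with amifostine. With no scaling the medians were 0.091 and -0.015, and 5 of 9 members were lower in the amifostine arm. The 75th percentile signal used for scaling was 330 and 285 on the PBS arrays and 277 and 370 on the amifostine arrays. Over both arms the irradiation difference had a member median of -0.037, with 7 of 9 members above 0 when no scaling was used, and no member passed (limma adjusted p = 1; 0% of 544 passed, 0 at an unadjusted p under 0.05). For mmu-let-7a-5p the 95% interval was -1.37 to 1.29.

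**Figure D4:**
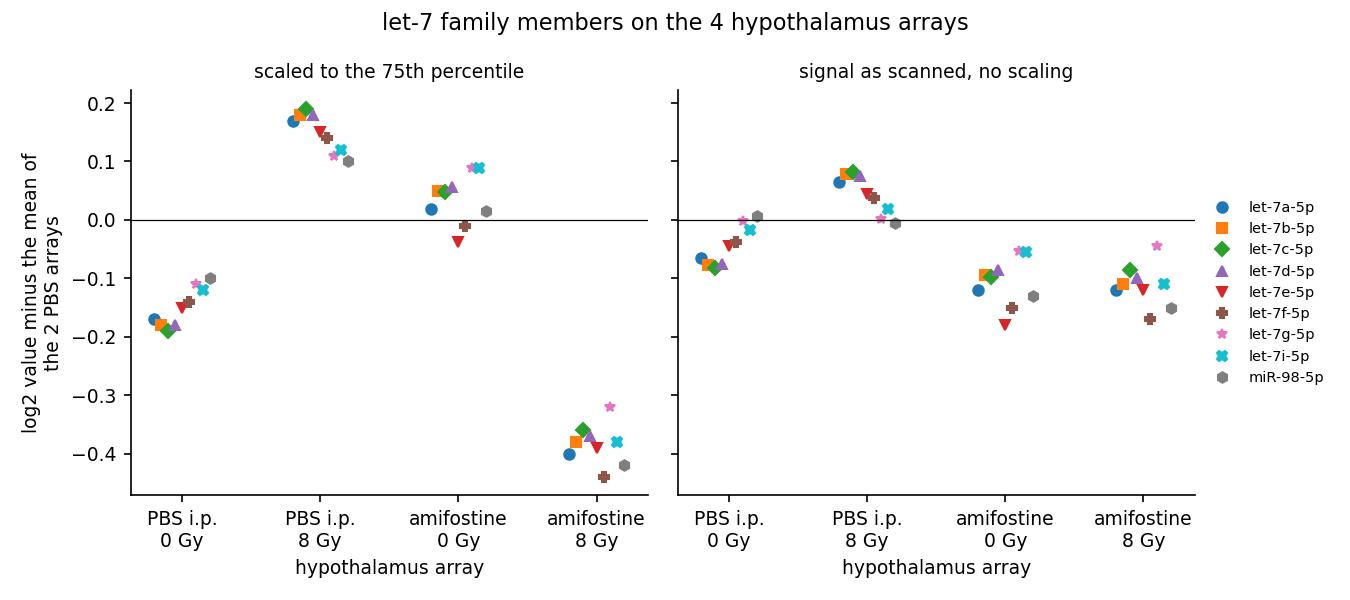
log2 value of each member on the 4 hypothalamus arrays (horizontal axis, by arm and dose) as the difference from its mean over the 2 PBS arrays (vertical axis), scaled to the 75th percentile (left) and as scanned (right). The 8 Gy amifostine array is lowest for all 9 members after scaling, and the spread is smaller without it.

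Amifostine against vehicle in hypothalamus gave -0.23 to -0.11 for the 9 members (limma adjusted p = 1; 0% of 544 passed, 1 at an unadjusted p under 0.05, 0 members). Slide 3 held only the amifostine arrays, and its effect cannot be told apart from that of the drug. After quantile normalization 5 of the 9 were higher with amifostine. The irradiation response differed between bone marrow and hypothalamus by 0.26 to 0.50 (median 0.36, beside 0.11 over all miRNAs), with a limma adjusted p of 1 for every member (0% of 530 passed, 17 unadjusted, 0 members), and after quantile normalization 6 of 9 were below 0.

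Relatives of the family were mostly dim. Of the 11 passenger strands of let-7 and miR-98 hairpins on the array, 2 were detected on any bone marrow array and 5 on any hypothalamus array. mmu-let-7b-3p was detected on 6 of 10 bone marrow arrays and 0 of 4 hypothalamus arrays, and its irradiation difference was 0.10 ± 0.19 (limma adjusted p = 0.70). Of the 2 other miRNAs with the seed GAGGUAG, mmu-miR-1961 was detected on no array and mmu-let-7k on 4 of 4 hypothalamus and 0 of 10 bone marrow arrays. mmu-let-7k was different between the tissues by -1.80 ± 0.11 (limma adjusted p = 0.000175), a value that rests on the floor in bone marrow and ranged from -4.72 to -0.037 over the settings. It is printed because it carries the U9G of mmu-let-7e-5p together with the A17G and A19G of mmu-let-7b-5p, both called lower in bone marrow; how far its probe reads them was not tested.
mmu-let-7k: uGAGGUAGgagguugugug
mmu-miR-202-3p, whose bases 2 to 8 differ from the family's at 1 position (G8U), was detected on all 14 arrays and was 1.79-fold higher in bone marrow, opposite to the let-7 members that passed (0.84 ± 0.25, limma adjusted p = 0.0403). It was higher in all 19 settings and passed in 12.

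The co-transcribed partners in bone marrow were 4 of 5 above the detection filter. All 4 were higher at 8 Gy over the 5 arms, by 0.21 to 0.50, and 0 passed. In the nilestriol arm their response exceeded that of vehicle by 1.93 ± 0.30 for mmu-miR-125b-5p, 1.41 ± 0.41 for mmu-miR-100-5p, 1.34 ± 0.23 for mmu-miR-99a-5p and 0.82 ± 0.21 for mmu-miR-125a-5p (limma adjusted p from 0.133 to 0.199). mmu-miR-125a-5p was detected on 1 of the 2 nilestriol arrays, so its value rests in part on the floor. The errors of these responses come from the PBS arrays alone.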

How the data were processed

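Small RNA of pooled mice was labelled with Cy3 and hybridised to 1-colour Agilent mouse miRNA arrays. The deposited scanner files hold spot intensity values, background-subtracted by Agilent Feature Extraction (version 10.7.1.1 per the headers). A deposited table of log2 values, whose normalization is not given in the sources used here, served only as an alternative; it followed the spot signals with a Spearman rho of at least 0.997 over detected miRNAs. Outlier spots were left out, and spots were averaged per probe and probes per miRNA. A miRNA counted as detected where a probe's total signal exceeded 3 times its error. In each fit, each array was scaled by its 75th percentile (taken over miRNAs found on every array fitted), raised to a floor at the 5th percentile of detected signals, and turned to log2. The miRNAs tested were detected on at least 5 of 10 bone marrow arrays (371), 2 of 4 hypothalamus arrays (544) or 4 of 8 matched arrays (530).

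Fits used limma 3.58.1 in R 4.3.3, with additive arm and dose terms for irradiation and drug differences, a contrast of dose differences between groups for responses and the matched condition as a block for tissue, and Benjamini-Hochberg adjustment over all miRNAs tested, called at 0.05. The code was tested on simulated data. With 1 array per group, precision is limited by the number of arrays, and p-values measure the spread between arrays of pooled RNA. Alternatives changed the background correction, scaling, filter, spots, floor, GC content, source of values, prior variance, slide and arrays. The text names the 9 members, passenger strands, miRNAs of the same seed, mmu-miR-202-3p, co-transcribed partners and the 5 most similar bone marrow profiles. Members and lists were chosen with earlier results of these data known. Mature sequences are from RefSeq (GRCm38.p6) and probes from the scanner files.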

Additional observations from a re-analysis of the deposited data

Results flagged for a closer look

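In hypothalamus, every member moved one way with irradiation in the PBS arm and the opposite way in the amifostine arm. The median change was 0.30 with PBS and -0.43 with amifostine, 1 array per dose and arm. The difference between the arms was not tested, since 4 arrays leave no spread for it. The opposite directions held for all 9 members under 8 of 9 other ways of making the values, and with no scaling the medians were 0.091 and -0.015.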

How the results depend on the processing

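Values are medians of the 9 members (log2) or counts of members that passed in limma. For irradiation in bone marrow, 1 member passed with normexp, the median was 0.024 after quantile normalization, 0.098 within slide 1 and 0.74 within slide 2, and 0.19 to 0.41 leaving out an arm. Quantile normalization turned mmu-let-7a-5p (-0.055), mmu-let-7d-5p (-0.0071), mmu-let-7f-5p (-0.089) and mmu-let-7g-5p (-0.087), and the authors' table turned mmu-let-7g-5p (-0.082). In the vehicle arms alone the median was -0.083 after quantile normalization, 0.29 with no scaling and -0.075 in the authors' table.

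Against vehicle, the percentile over all miRNAs gave 1 call and -0.53 with CBLB502, -0.36 with amifostine, and 5 calls and -0.72 with nilestriol. Of all 371 miRNAs, 83 passed there with CBLB502, 0 with amifostine and 72 with nilestriol. CBLB502 had 1 call within slide 1. The nilestriol median was -0.22 with the GC trend removed and -0.25 in the authors' table. The count was 0 to 6 without 1 array, and the median -0.79 to -0.17, with nilestriol. Without its 0 Gy array mmu-let-7b-5p (0.06), mmu-let-7c-5p (0.029) and mmu-let-7e-5p (0.52) turned; without its 8 Gy array mmu-let-7c-5p was at -0.82 and mmu-let-7e-5p at -1.47. Leaving out 1 array gave -0.43 to -0.16 with CBLB502, -0.22 to 0.035 with amifostine (above 0 without the 0 Gy array of injected PBS) and -0.61 to -0.14 for nilestriol against amifostine.

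The response with CBLB502 was -0.18 with the percentile over all miRNAs and -0.22 with no scaling. With amifostine it was -0.14 with no scaling, 0.18 with the GC trend removed and 0.31 in the authors' table. With nilestriol the median was 0.46 after quantile normalization, 0.32 with no scaling, 0.16 with the GC trend removed and 0.53 in the authors' table. For the amifostine and nilestriol arms against the others these 4 medians were 0.44, 0.17, 0.17 and 0.44. Leaving out an arm gave medians of 0.36 to 0.70. The number of calls with nilestriol changed with the setting, for all miRNAs as well as for members. It is left out because each nilestriol dose was 1 array.

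Between tissues, 4 members passed with the percentile over all miRNAs and with the GC trend removed, 3 as lower in bone marrow and mmu-let-7i-5p as higher. Under these settings 376 and 378 of all 530 miRNAs passed in either direction. With no filter and with slide as a term 4 passed as lower, and 5 to 8 leaving out a condition (5 without PBS at 8 Gy; medians -1.61 to -1.22). With no filter 217 of all 1247 miRNAs passed. The median was -0.031 with the percentile over all miRNAs, -0.71 after quantile normalization, -2.09 with no scaling, -0.23 with the GC trend removed and -0.76 in the authors' table. The percentile over all miRNAs turned mmu-let-7d-5p (0.39), mmu-let-7f-5p (0.38), mmu-let-7g-5p (0.33) and mmu-let-7i-5p (1.37). Removing the GC trend turned the same 4 (0.24, 0.17, 0.17 and 1.23). mmu-let-7i-5p was also above 0 after quantile normalization (0.64), in the authors' table (0.59) and without amifostine at 0 Gy (0.24). The tissue difference in irradiation response was -0.037 after quantile normalization. The cause of these shifts was not tested.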
